A study of Homo sapiens with 12 samples.

Results

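The genes described here are 10 regulators of mTORC1, the growth-controlling kinase complex that the protein kinase mTOR forms with raptor: RRAGA, RRAGB, RRAGC, RRAGD, RHEB, TSC1, TSC2, DEPTOR, SESN3 and NIBAN1. They are 10 of the 19775 genes measured. The set was selected on measured values: RRAGD and NIBAN1 had been seen to be lower outside parental culture, and the other 8 were named beside them as parts of the same pathway. Each gene was taken with every probe set that carried its symbol alone or an older synonym of it, which gave 30 probe sets, 1 for each of 3 genes and several for each of the other 7.

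The cells were NCI-H1299, a long-established line from a human lung carcinoma of the non-small cell type, and their RNA was hybridised to 12 arrays of the Affymetrix U133 Plus 2.0 type. Spheroid xenografts were tumours grown from cells kept in stem-cell medium, and parental xenografts were tumours grown from cells kept in serum-containing medium. Spheroid culture was the stem-cell medium culture itself, in which cells in suspension were collected and moved to low-attachment flasks, and parental culture was the serum-containing culture. Each of the 4 groups had 3 biological replicates. All groups derive from 1 cell line, and the labels give neither the host animal nor the site, age or purity of the tumours. In tumour RNA, fewer cells of a type and less RNA per cell cannot be told apart.

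mTORC1 switches on growth and protein synthesis at the surface of the lysosome when amino acids and growth factors are both present. Amino acids act through the Rag GTPases, in which RRAGA or RRAGB pairs with RRAGC or RRAGD to bring the complex to the lysosome. Growth factors act through the TSC1 and TSC2 proteins, which hold the small GTPase RHEB, the direct activator of the kinase, in its inactive state. DEPTOR binds mTOR and restrains it, SESN3 is a stress-induced sestrin that lowers mTORC1 activity, and NIBAN1 is a stress-induced protein linked to translation control.

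RRAGD and RRAGC are known targets of the MiT/TFE transcription factors, which bind the E-box CACGTG. The windows of RRAGC and RRAGB are shown because they hold it, and that of NIBAN1 because its level varied most. For RRAGB, RRAGC, NIBAN1, TSC1, TSC2, RHEB and SESN3 the 250 bases before the RefSeq start (build GRCh38.p14) were searched on both strands for CACGTG, for the ATF4-type element TGATGNAA and for the FOXO element TGTTTAC. Capitals mark the E-box matches. RRAGC lies on the minus strand at chr1:38859773-38860022, RRAGB on the plus strand at chrX:55717499-55717748, and NIBAN1 on the minus strand at chr1:184974509-184974758.
RRAGC: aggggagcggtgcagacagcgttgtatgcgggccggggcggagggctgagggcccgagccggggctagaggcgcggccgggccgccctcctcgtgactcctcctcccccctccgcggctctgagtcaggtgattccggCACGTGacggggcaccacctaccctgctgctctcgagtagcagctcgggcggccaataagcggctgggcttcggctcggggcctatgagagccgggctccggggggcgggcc
RRAGB: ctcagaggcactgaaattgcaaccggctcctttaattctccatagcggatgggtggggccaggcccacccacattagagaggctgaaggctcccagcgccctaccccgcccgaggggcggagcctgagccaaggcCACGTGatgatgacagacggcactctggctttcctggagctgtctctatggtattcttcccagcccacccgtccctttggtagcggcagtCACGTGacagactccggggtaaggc
NIBAN1: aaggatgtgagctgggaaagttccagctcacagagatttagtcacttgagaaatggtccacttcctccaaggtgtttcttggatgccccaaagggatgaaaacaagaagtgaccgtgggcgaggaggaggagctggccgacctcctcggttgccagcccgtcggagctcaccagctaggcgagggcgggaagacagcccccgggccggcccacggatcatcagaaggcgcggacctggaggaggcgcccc
The RRAGC window held CACGTG 112 bases before the start, and the RRAGB window held it 115 and 25 bases before the start. The NIBAN1 window held none of the 3 motifs, which says only that these letters are not in this window. Among these 7 regulators, 3 held CACGTG (RRAGB, RRAGC and TSC2) against 6.34% of 35116 windows of the same length. TGATGNAA was found in TSC2, where it overlaps the CACGTG, against 3.14% of windows, and TGTTTAC in none of the 7 against 2.98%.

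In the gene table of build GRCh38.p14, RRAGD lies at chr6:89364616-89412273, NIBAN1 at chr1:184791032-184974508, RRAGA at chr9:19049427-19051025, RRAGB at chrX:55717749-55758774 and RRAGC at chr1:38838198-38859772. TSC1 lies at chr9:132891349-132945378, TSC2 at chr16:2047985-2089491, RHEB at chr7:151466012-151519895, DEPTOR at chr8:119873722-120050918 and SESN3 at chr11:95165513-95232475. The files name no build for the probe sets.

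All values are log2 expression values, so a difference of 1 is a 2-fold difference, and levels are compared only between groups for the same probe set. The arrays had similar medians, 5.85 to 6.03, but unequal spread. The interquartile range ran from 2.82 to 3.44. It was widest on parental culture replicate 2 (3.44), parental xenograft replicate 3 (3.29) and spheroid xenograft replicate 3 (3.23). Deviations from the group means on parental culture replicate 2 correlated with those on replicate 3 of spheroid culture (0.508), parental xenografts (0.584) and spheroid xenografts (0.636). Parental culture was the least uniform group. Its replicate 1 had a GAPDH 3′ minus 5′ difference of 0.49, against 0.019 to 0.13 on the other 11 arrays, and its 18S ribosomal RNA control read 6.96, with 10.5 on replicate 2 and 12.2 to 13.3 on the other 10. For actin the same measure was 0.78 there. Spheroid xenograft replicate 3 had 0.64, spheroid culture replicate 1 had 0.77, and the remaining 9 had 0.18 to 0.38. Spheroid culture replicate 1 was the highest array of its group for both RRAGD and NIBAN1. Parental culture replicate 2 correlated best with parental xenograft replicate 3 (r = 0.975), and spheroid culture replicate 1 with parental xenograft replicate 2 (r = 0.983), each across probe sets, which are not independent replicates. Parental culture replicate 2 was the highest array for 5 of the 10 regulators, RRAGA, RRAGB, RRAGD, NIBAN1 and TSC1. The part of these array differences in the values was not tested, and values without these arrays are given below.

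RRAGD was low in both kinds of tumour, intermediate and scattered in spheroid culture and high in parental culture. With its brighter probe set it read 6.20, 6.33 and 6.08 in spheroid xenografts, 5.96, 6.63 and 6.46 in parental xenografts, 8.87, 6.90 and 6.60 in spheroid culture and 9.59, 10.22 and 8.42 in parental culture. The tumour groups overlapped each other and lay below every culture array but for parental xenograft replicate 2, which read above spheroid culture replicate 3, and spheroid culture replicate 1 read above parental culture replicate 3. Its dimmer probe set read 4.09, 4.15 and 4.29 in spheroid xenografts, 4.06, 4.22 and 4.22 in parental xenografts, 5.71, 4.84 and 4.50 in spheroid culture and 7.48, 8.92 and 7.33 in parental culture, with all 9 other arrays below parental culture. On this probe set every tumour array and spheroid culture replicate 3 read under the lower quartile of its own array (4.65 to 4.77), so these values are dim.

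Because RRAGD was chosen for its level against parental culture, its differences from that group are a description. The difference was -3.06 (SE 0.54) in parental xenografts against parental culture and -1.95 (SE 0.54) in spheroid culture against parental culture, with -3.74 and -2.89 by the other probe set. Without parental culture replicates 1 and 2 together the differences were -2.07 for parental xenografts and -0.96 for spheroid culture, and without spheroid culture replicate 1 the second was -2.66. Keratins of the line's epithelial origin were also lower outside parental culture. KRT8 averaged 7.47 in spheroid xenografts, 7.19 in parental xenografts, 7.53 in spheroid culture and 8.96 in parental culture, and KRT18 averaged 11.34 in spheroid xenografts, 10.85 in parental xenografts, 11.66 in spheroid culture and 12.56 in parental culture. Against parental culture KRT8 fell in spheroid culture (difference -1.43, limma adjusted p = 0.0109) and in parental xenografts (difference -1.77, limma adjusted p = 0.00278), and KRT18 fell in parental xenografts (difference -1.71, limma adjusted p = 0.0191), while VIM, the mesenchymal filament, averaged 14.16 to 14.68 and did not pass. All 3 keratin calls were lost when only the groups compared were fitted, with or without a replicate block (adjusted p up to 0.248). The first was also lost without spheroid culture replicate 2, and the KRT18 call without parental culture replicate 3 or parental xenograft replicate 2 or 3. Their part in the RRAGD values was not tested.

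Among the other 3 groups, whose differences from each other did not enter that choice, no difference in RRAGD passed the test. The test throughout is limma's moderated test on all 12 arrays, with Benjamini-Hochberg adjustment over all genes and a threshold of 0.05. Spheroid against parental xenografts gave -0.15 (SE 0.54, 95% interval -1.32 to 1.03, adjusted p = 1), an interval that reaches past 2-fold on each side. The fit shares 1 spread over all groups, so this width does not describe the tumours alone. The SD was 0.13 in spheroid xenografts and 0.35 in parental xenografts, against 1.23 in spheroid culture and 0.92 in parental culture. Spheroid xenografts against spheroid culture gave -1.26 (SE 0.54, 95% interval -2.43 to -0.084, adjusted p = 0.635), with groups that did not overlap, and -0.55 without spheroid culture replicate 1. Parental xenografts against spheroid culture gave -1.11 (SE 0.54, adjusted p = 0.469), and these groups overlapped.

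**Figure D1:**
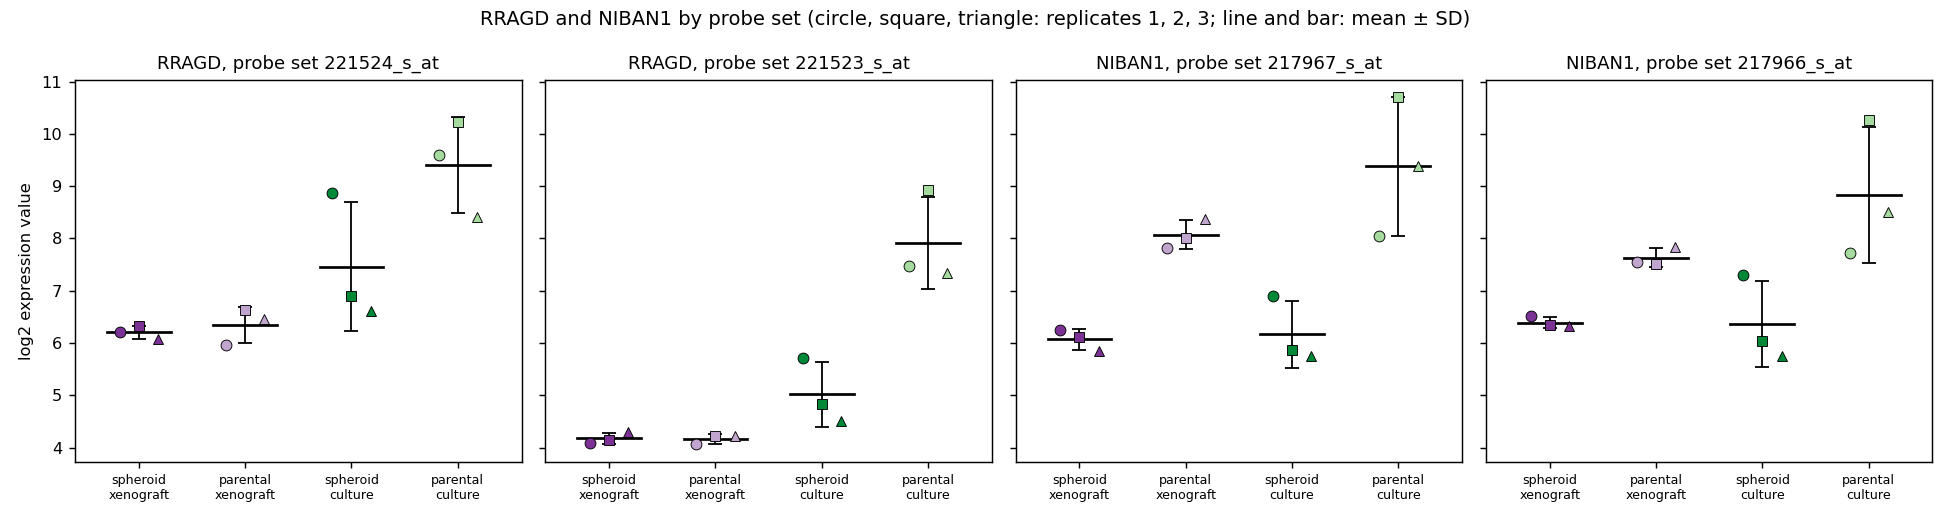
RRAGD and NIBAN1 on both of their probe sets (vertical axis, log2 expression value) in the 4 groups (horizontal axis). Each point is an array, the line is the mean and the bar the SD of 3 arrays. RRAGD is low in both xenograft groups. NIBAN1 reads lower in spheroid than in parental xenografts on both probe sets, a difference that did not pass limma's test on either with all arrays weighted equally.

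NIBAN1 followed another order, with tumour values that lay apart by the origin of the cells but did not pass the test with all arrays weighted equally. With its first probe set it read 6.24, 6.11 and 5.86 in spheroid xenografts, 7.82, 8.02 and 8.38 in parental xenografts, 6.90, 5.86 and 5.75 in spheroid culture and 8.04, 10.70 and 9.38 in parental culture. Every array of the spheroid groups lay below every array of the parental groups, and the parental groups overlapped. Its second probe set read 6.51, 6.34 and 6.32 in spheroid xenografts, 7.55, 7.51 and 7.84 in parental xenografts, 7.29, 6.03 and 5.76 in spheroid culture and 7.72, 10.27 and 8.50 in parental culture, in the same arrangement.

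NIBAN1 averaged 6.07 ± 0.20 in spheroid xenografts and 8.07 ± 0.28 in parental xenografts (SD, n = 3 each), which is -2.0 apart (SE 0.52, 95% interval -3.13 to -0.88), or 4.01-fold lower, with limma's adjusted p = 0.191. The adjusted p ranged from 0.00111 to 0.67 over 24 alternatives and was under 0.05 in 5 of them. These were the fit of the 2 tumour groups alone (0.00583), that fit with a replicate block (0.0113, against 0.218 with the block on all arrays), array weights (0.00111) and the fits without parental culture replicate 2 (0.0306) or without its replicates 1 and 2 (0.0194). The difference was -2.13 to -1.62 in all 24. The other probe set gave -1.24 (SE 0.54, adjusted p = 0.762 over all probe sets).

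NIBAN1 was 1.90 higher in parental xenografts than in spheroid culture (SE 0.52, limma adjusted p = 0.127), again with groups that did not overlap. Its adjusted p was under 0.05 in 6 of 24 alternatives, among them the fits without parental culture replicate 1 (0.0322) or replicate 2 (0.0210). Spheroid xenografts against spheroid culture gave -0.098 (SE 0.52, adjusted p = 0.983). Against parental culture, as a description, NIBAN1 was -3.21 (SE 0.52) in spheroid culture and -1.30 (SE 0.52) in parental xenografts. The second value was -0.64 without parental culture replicate 2 and -1.97 without replicate 1.

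Of 7 fibroblast markers 1, FAP, fell in spheroid against parental xenografts, and 1, LUM, lay under the lower quartile of the array on every array. FAP, a protease of activated fibroblasts, averaged 5.92 ± 0.042 in spheroid xenografts and 7.27 ± 0.43 in parental xenografts (SD, n = 3 each), a gap of -1.35 (SE 0.22, limma adjusted p = 0.0365), which passed in 4 of the 12 fits that leave out an array and in 15 of all 24 alternatives. The summed level of the 7, on the linear scale, ran from 788.6 to 826.4 in spheroid xenografts, 817.9 to 1200 in parental xenografts, 706.4 to 779.3 in spheroid culture and 503.1 to 719 in parental culture. FAP and COL3A1, a fibrillar collagen, both rose in parental xenografts against spheroid culture (1.61 and 1.95, limma adjusted p = 0.0126 and 0.0363) and against parental culture (2.2 and 2.06, limma adjusted p = 0.00085 and 0.0126). The COL3A1 calls passed in 4 and in 10 of the 12 fits that leave out an array and rest on a probe set of the _s_at kind, which can share sequence with other transcripts. Both probe sets of RRAGD and both of NIBAN1 are of that kind too. With _s_at and _x_at probe sets left out, the COL3A1 differences were -0.0087 and -0.0153. The part of these markers in the NIBAN1 result was not tested. Markers of endothelial cells, myeloid cells, lymphocytes, adipocytes, muscle and red cells had no gene that passed the test in any comparison. The probe sets are for human transcripts, and how they read cells of a host animal was not tested. Neither these markers nor those of fibroblasts therefore measure the share of host cells.

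**Figure D2:**
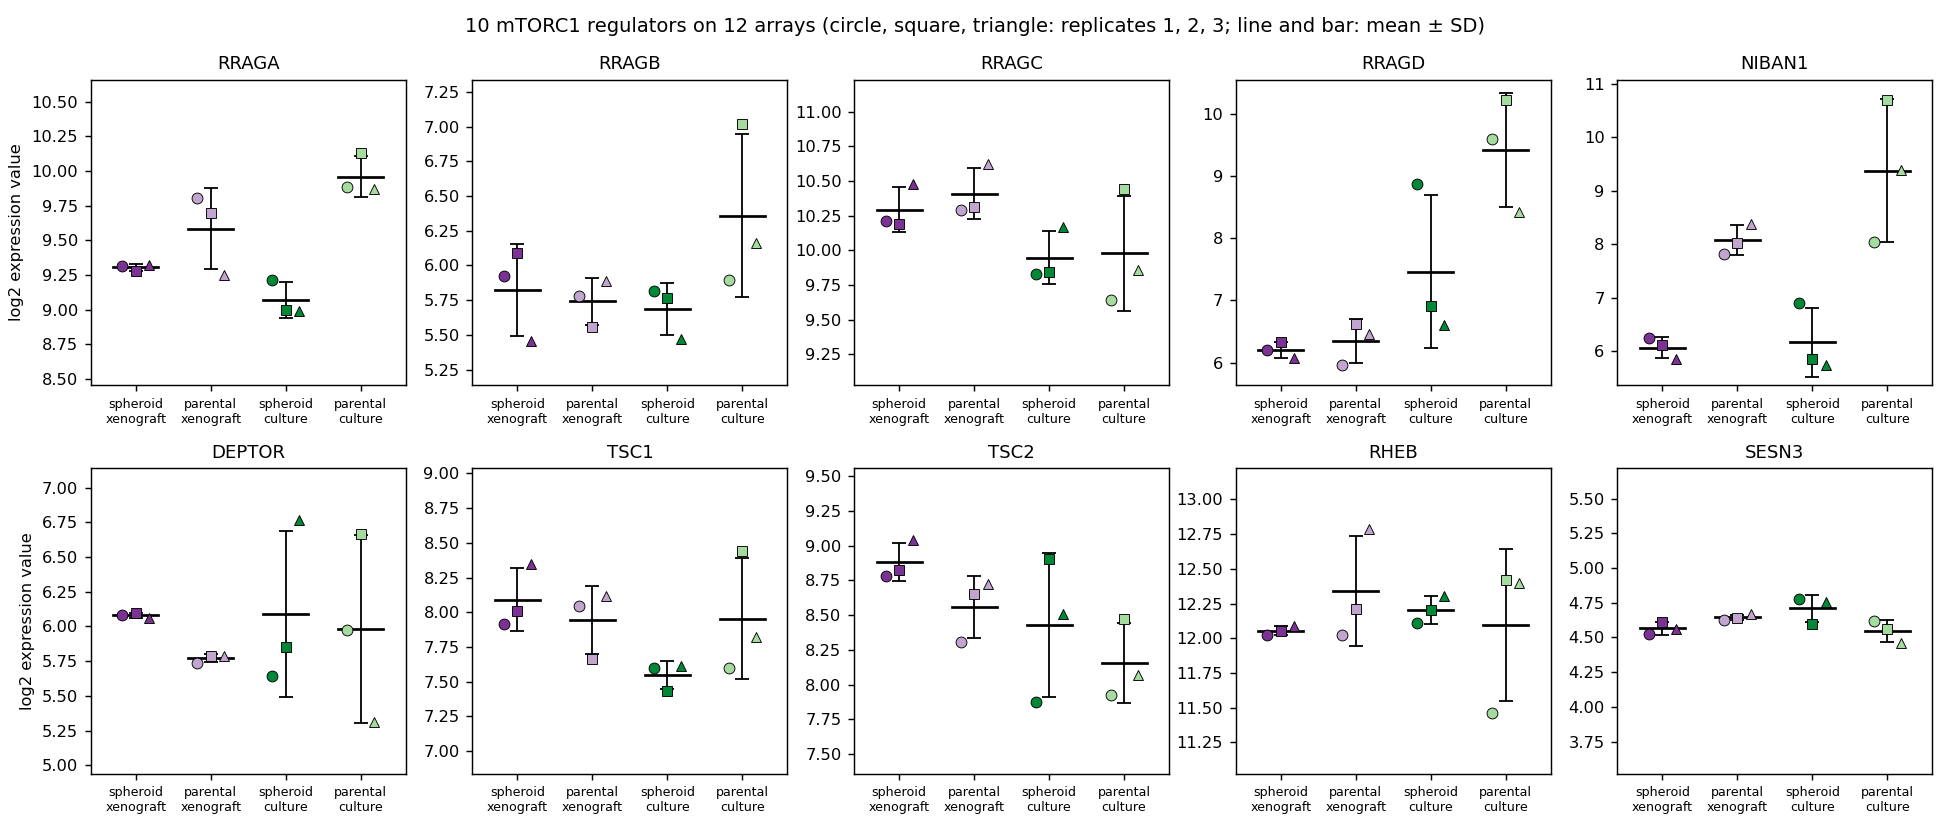
The 10 regulators (1 panel each, vertical axis, log2 expression value of the gene's brightest probe set) in the 4 groups. Each point is an array and the line and bar are the mean and SD of 3 arrays. RRAGD and NIBAN1 span 4.27 and 4.95 over the 12 arrays, and the other 8 span 0.32 to 1.57.

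The other Rag genes varied less. RRAGA, which pairs with RRAGC or RRAGD, read 9.31, 9.28 and 9.32 in spheroid xenografts, 9.81, 9.70 and 9.25 in parental xenografts, 9.22, 9.0 and 8.99 in spheroid culture and 9.88, 10.13 and 9.87 in parental culture. It was the only one of the 10 whose 9 other arrays all lay below parental culture on the brightest probe set, an arrangement held by 2.54% of all genes. It was 0.52 higher in parental xenografts than in spheroid culture (SE 0.16, limma adjusted p = 0.189) and passed the threshold there only with array weights (0.00643). Against parental culture it was -0.89 (SE 0.16) in spheroid culture and -0.37 in parental xenografts.

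RRAGB, the close paralogue of RRAGA, read 5.93, 6.09 and 5.46 in spheroid xenografts, 5.78, 5.56 and 5.89 in parental xenografts, 5.82, 5.76 and 5.47 in spheroid culture and 5.90, 7.02 and 6.16 in parental culture. Parental culture replicates 2 and 3 read above all other arrays, and replicate 1 lay within them. RRAGC, the paralogue of RRAGD, read 10.21, 10.19 and 10.48 in spheroid xenografts, 10.29, 10.31 and 10.62 in parental xenografts, 9.83, 9.84 and 10.17 in spheroid culture and 9.64, 10.44 and 9.86 in parental culture. Both tumour groups lay above spheroid culture, by 0.35 in spheroid xenografts (limma adjusted p = 0.802) and by 0.46 in parental xenografts (limma adjusted p = 0.417), and neither passed the test. A second RRAGC probe set had the same order of group means, while the third and dimmest, at 4.34 to 4.91, did not.

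TSC1 and TSC2, the brake on RHEB, differed between groups by less than 1 on the log2 scale. TSC1 read 7.92, 8.01 and 8.35 in spheroid xenografts, 8.05, 7.66 and 8.12 in parental xenografts, 7.60, 7.43 and 7.61 in spheroid culture and 7.60, 8.44 and 7.82 in parental culture. It was 0.54 higher in spheroid xenografts than in spheroid culture (SE 0.22, limma adjusted p = 0.581), without overlap, and passed only with array weights (0.0478). TSC2 read 8.79, 8.82 and 9.04 in spheroid xenografts, 8.30, 8.65 and 8.72 in parental xenografts, 7.88, 8.90 and 8.51 in spheroid culture and 7.92, 8.47 and 8.07 in parental culture. Its tumour groups did not overlap, with a difference of 0.32 (SE 0.24) that did not pass the test, and its dim second probe set gave 0.029.

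RHEB, which activates the kinase, read 12.02, 12.05 and 12.09 in spheroid xenografts, 12.02, 12.21 and 12.78 in parental xenografts, 12.11, 12.20 and 12.31 in spheroid culture and 11.46, 12.42 and 12.40 in parental culture. Its groups overlapped in most pairs, and its 9 probe sets disagreed in sign in all 6 comparisons, for example 3 higher and 6 lower, at -0.38 to 0.21, in spheroid against parental xenografts and 4 higher and 5 lower, at -0.56 to 0.66, in parental xenografts against spheroid culture. DEPTOR, the mTOR-binding inhibitor, read 6.08, 6.10 and 6.06 in spheroid xenografts, 5.74, 5.79 and 5.79 in parental xenografts, 5.64, 5.85 and 6.77 in spheroid culture and 5.98, 6.67 and 5.31 in parental culture. Its tumour values were tight and did not overlap (0.31, SE 0.32, limma adjusted p = 1). The fit shares 1 spread over all groups, and the SD was 0.60 in spheroid culture and 0.68 in parental culture. Its second probe set, at 3.85 to 4.17, had the opposite sign between the tumours. SESN3, the sestrin, read 4.46 to 4.78 on all 12 arrays with its brightest probe set and lay under the array's lower quartile on 10 of them, so its groups are not ordered here. Its 7 probe sets disagreed in sign in all 6 comparisons, and in spheroid against parental culture they ran from -0.66 to 0.16.

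**Figure D3:**
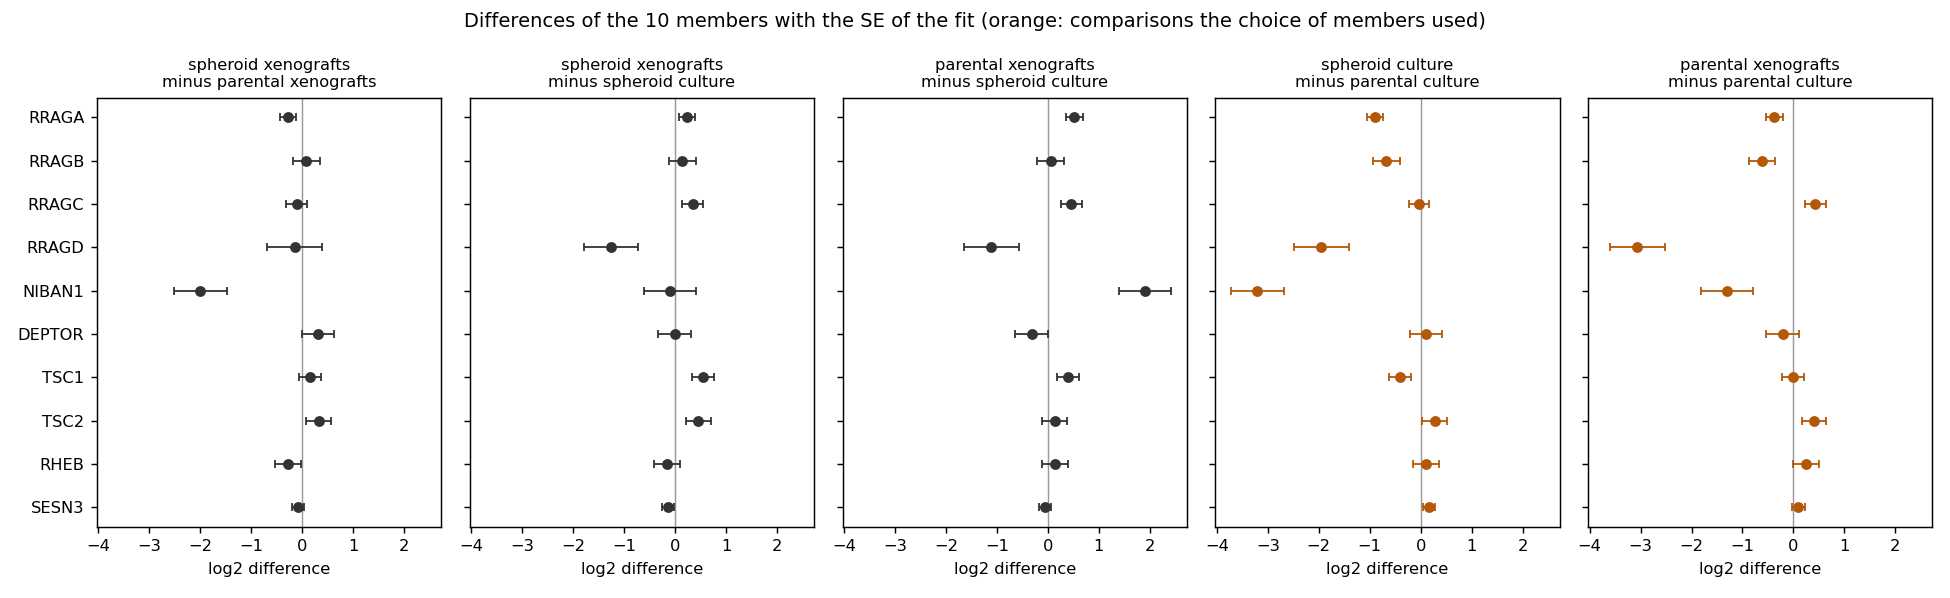
Differences of the 10 regulators (horizontal axis, log2, with SE) in each comparison. Orange marks the comparisons against parental culture, which the choice of genes used. NIBAN1 is at -2.0 between the tumours and RRAGD at -1.26 between spheroid xenografts and spheroid culture.

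Counted over the 10 regulators, limma called none in spheroid against parental xenografts (0.233% of all genes were called), none in spheroid xenografts against spheroid culture (0.0202%) and none in parental xenografts against spheroid culture (0.834%). At an unadjusted p under 0.05 the counts were 1, 2 and 3 of 10, where 7.34%, 7.39% and 11.4% of all genes were. Deviations of replicates of the same number correlated in the first (0.182 to 0.482) and second (0.333 to 0.431) of these comparisons. In the first, parental xenograft replicate 2 went better with spheroid xenograft replicate 1 (0.255) than with replicate 2 (0.213). Pairing by number is unsettled there. With a replicate block on the 2 tumour groups alone, NIBAN1 was called, as it was in that fit without the block, where 2.48% of genes with it and 0.814% without it were called, and on all arrays with the block none of the 10 (0.217%). For spheroid xenografts against spheroid culture none of the 10 was called with the block on these groups alone (2.99% of genes) or on all arrays (0.0405%). Values did not overlap for 4 of 10 regulators between the tumours against 16.5% of all genes, for 5 of 10 between spheroid xenografts and spheroid culture against 18.7%, and for 4 of 10 between parental xenografts and spheroid culture against 20.6%. Those between the tumours were NIBAN1, DEPTOR, TSC2 and SESN3. SESN3 lay under the lower quartile on 10 arrays, so nothing is read from that count. The median differences of the 10 were -0.097, 0.066 and 0.13, against 0.019, -0.047 and -0.071 over all genes. In spheroid against parental culture 2 regulators, RRAGA and NIBAN1, were past the threshold where 2.46% of genes were, and in parental xenografts against parental culture 1, RRAGD, where 3.47% were. RRAGD and NIBAN1 were chosen on the comparisons with parental culture and RRAGA beside them, so these counts are given as a description and nothing is read from them. The test of whether the effect of cell origin differed between tumours and culture called none of the 8 regulators outside RRAGD and NIBAN1 (0.137% of all genes), with 1, RRAGA, at an unadjusted p under 0.05 (7.41% of all genes). RRAGA was the closest to it by size over error, at 0.61 (SE 0.23, limma adjusted p = 0.492).

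The wider pathway was read from 11 lists with 108 measured genes of 114, the remainder not being analysed here. No gene of these passed limma's test between spheroid and parental xenografts or between spheroid xenografts and spheroid culture, with 17 (15.7%) and 9 (8.33%) at an unadjusted p under 0.05, against 7.34% and 7.39% of all genes. Between the tumours 8 were called with a replicate block on those 2 groups alone, a fit with 2 residual degrees of freedom, against 3 in that fit without the block and none with the block on all arrays. That is 7.41% of the 108 with the block and 2.78% without it, where 2.48% and 0.814% of all genes were called. The 6 that rose there were SLC7A5, a leucine transporter, ATF3, a stress-induced transcription factor, SESN2, IGF1R, CHAC1 and MAPKAP1, an mTORC2 subunit, and those that fell were BCL6 and VLDLR, a lipoprotein receptor. Between spheroid xenografts and spheroid culture 3 were called with the block on those groups alone (2.78%, against 2.99% of all genes), 2 in that fit without it (1.85%, against 0.592%) and none with the block on all arrays. In parental xenografts against spheroid culture 1 rose, or 0.926%, against 0.834% of all genes. In spheroid against parental culture 2 rose and 2 fell, and in parental xenografts against parental culture 4 fell, 3.7% in each case, against 2.46% and 3.47% of all genes.

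On the lysosomal Rag platform, 1 of 8 genes changed. LAMTOR5, a subunit of the Ragulator scaffold that anchors the Rag proteins, averaged 12.02 ± 0.23 in spheroid culture and 10.97 ± 0.25 in parental culture (SD, n = 3 each) and rose by 1.05 (SE 0.21, limma adjusted p = 0.0230), and the call passed in 19 of 25 alternatives. It was lost without spheroid culture replicate 2 or replicate 3, without parental culture replicates 1 and 2 together (0.211), with median centring (0.0505) and with only the groups compared, without (0.108) or with a replicate block (0.109). The second LAMTOR5 probe set was at 0.87 (limma adjusted p = 0.117 over all probe sets). Among amino acid sensors and transporters, 2 of 11 fell in parental xenografts against parental culture. SESN2, the leucine-sensing sestrin, was lower (difference -1.34, SE 0.33, limma adjusted p = 0.0489), and CASTOR2, of the arginine-sensor family, was lower (difference -0.71, SE 0.18, limma adjusted p = 0.0489). Each was close to the threshold, passing in 2 and in 1 of the 12 fits that leave out an array, and in 8 of 24 and 5 of 25 alternatives in all. SESN2 by its second probe set was at -1.275 (limma adjusted p = 0.23 over all probe sets).

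Among growth factor inputs, 2 of 10 changed in spheroid against parental culture. AKT2, a kinase that inhibits TSC2, averaged 8.05 ± 0.29 in spheroid culture and 9.76 ± 0.31 in parental culture, and fell (difference -1.71, SE 0.20, limma adjusted p = 0.00266). It also fell in parental xenografts, at 8.38 ± 0.22, against parental culture (difference -1.38, SE 0.20, limma adjusted p = 0.00346). Both calls were lost when only the groups compared were fitted, with or without a replicate block, and the second without parental culture replicates 1 and 2 together (0.0556). Another AKT2 probe set was also lower in spheroid than in parental culture (-1.25, limma adjusted p = 0.00453 over all probe sets). The remaining ones were at -1.05 to -0.25 there and did not pass. IGF1R, the receptor for insulin-like growth factor 1, averaged 9.23 ± 0.40 in spheroid culture and 7.76 ± 0.46 in parental culture, and rose by 1.47 (SE 0.30, limma adjusted p = 0.0278). It passed in 7 of the 12 fits that leave out an array and in 15 of all 25 alternatives. Its other probe sets were at 0.035 to 1.65, and none passed over all probe sets (lowest limma adjusted p = 0.0572).

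Among 8 genes of the ATF4 stress response, which amino acid shortage induces, only CHAC1 passed the test. CHAC1, an enzyme that degrades glutathione, averaged 7.47 ± 0.12 in spheroid xenografts, 6.68 ± 0.19 in parental xenografts, 7.49 ± 0.27 in spheroid culture and 9.03 ± 0.57 in parental culture (SD, n = 3 each). It fell in spheroid against parental culture (difference -1.53, SE 0.25, limma adjusted p = 0.00945) and in parental xenografts against parental culture (difference -2.35, SE 0.25, limma adjusted p = 0.00101). The first call was lost without spheroid culture replicate 2 (0.0602), without parental culture replicates 1 and 2 together (0.0511) and with only the groups compared, without (0.108) or with a replicate block (0.0928), and the second held in all 25 alternatives. The median of the 8 genes in parental xenografts against parental culture was -1.06, against -0.0091 over all genes. In the NIBAN family, NIBAN2, the nearest relative of NIBAN1, rose in parental xenografts against spheroid culture by 0.98 (SE 0.20, limma adjusted p = 0.0489), passing in 3 of the 12 fits that leave out an array and in 7 of all 25 alternatives, and NIBAN3 did not pass in any comparison. NIBAN2 by its second probe set was at 0.66 (limma adjusted p = 0.152 over all probe sets).

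The other 6 lists had no gene that passed in any comparison with all arrays weighted equally and the values as deposited. The gene with the lowest p between spheroid and parental xenografts in each is given with its difference. PRR5, an mTORC2 subunit, was at 0.44 (SE 0.13, limma adjusted p = 0.286). RPS6KB2, the second S6 kinase, was at 0.43 (SE 0.15, limma adjusted p = 0.437). BCL6, a transcriptional repressor on the FOXO list, was at -1.0 (SE 0.39, limma adjusted p = 0.531). CTSD, a lysosomal protease on the MiT/TFE list, was at -0.47 (SE 0.19, limma adjusted p = 0.539). NPRL3, of the GATOR1 complex that turns Rag signalling off, was at 0.28 (SE 0.14, limma adjusted p = 0.755), and PRKAG1, a subunit of the energy-sensing kinase AMPK, was at 0.36 (SE 0.24, limma adjusted p = 0.964).

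**Figure D4:**
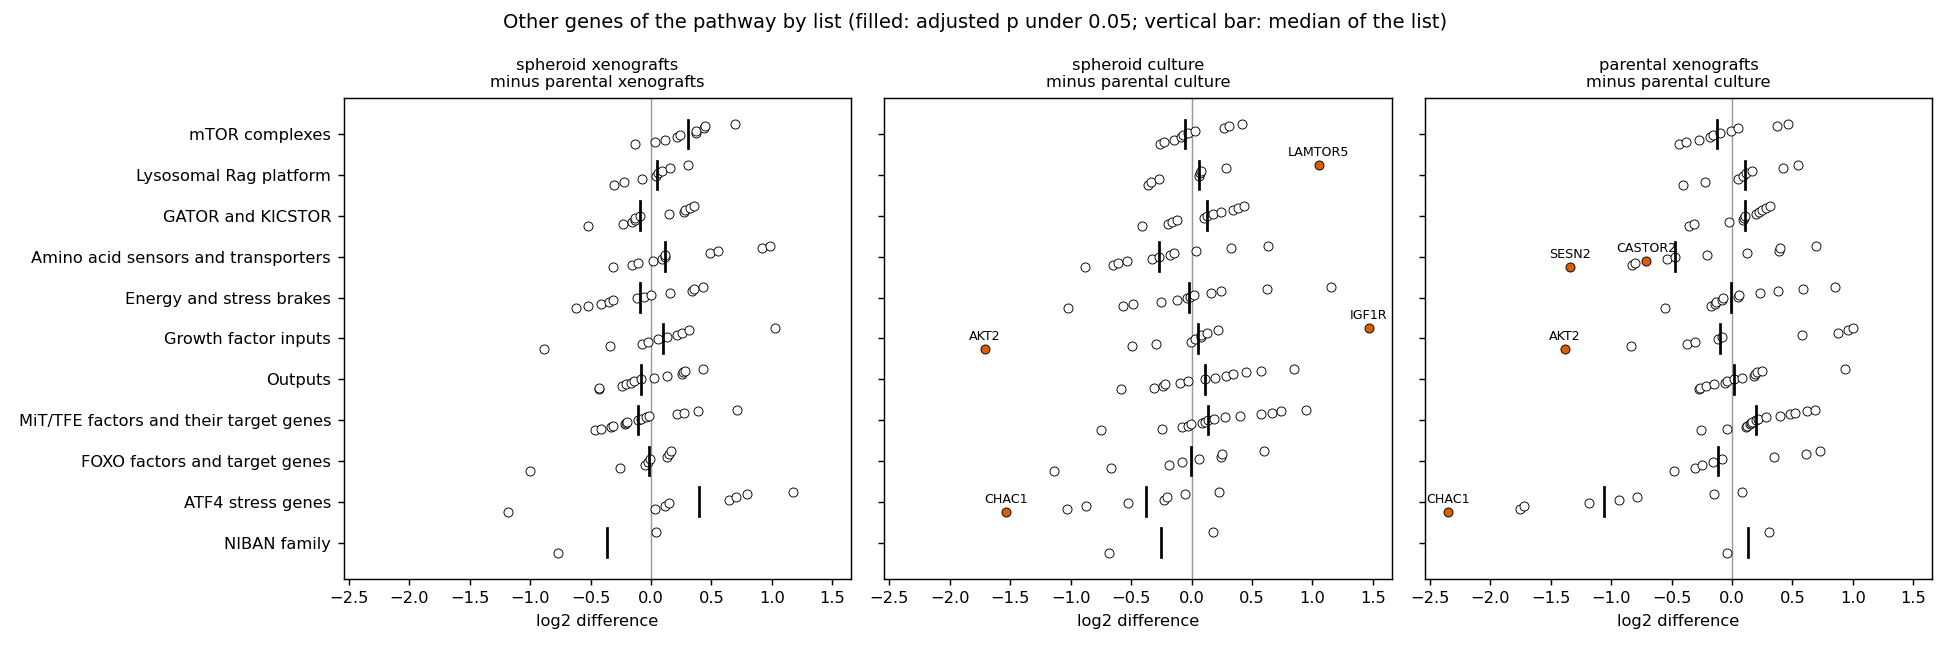
Differences of the listed pathway genes (log2) by list and comparison. Each point is a gene and the marked ones passed limma's test, which none did between spheroid and parental xenografts with all arrays weighted equally and the values as deposited.

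The genes whose pattern over the 12 arrays was most like that of RRAGD, by the root mean square difference between centred log2 values, were ELOVL7 at 0.51, OXCT1 at 0.53, CYP1B1 at 0.56, DSG2 at 0.59 and GDA at 0.61. For NIBAN1 they were PAPSS2 at 0.55, FZD1 at 0.59, CNKSR2 at 0.62, and PAQR5 and ARMCX1 at 0.66 each. PAPSS2, for example, averaged 6.74 in spheroid xenografts, 8.40 in parental xenografts, 7.38 in spheroid culture and 9.45 in parental culture. RRAGD and NIBAN1 differed from each other by 1.24, with NIBAN1 at place 821 in the order for RRAGD and RRAGD at place 833 in the order for NIBAN1. These are descriptions over arrays that share the groups.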

How the data were processed

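The deposited table holds log2 expression values of 54675 probe sets on 12 arrays, and RMA and affy are named in the submitters' processing notes, without versions. These values were used as deposited. Gene names came from the platform annotation, in which 41091 probe sets had 1 symbol, 1801 several and 11721 none, with 62 controls, and old symbols were updated by gene number. A gene is its probe set with the highest mean, which gave 19775 genes, and no dim gene was removed. Differences were tested with limma 3.58.1 in R 4.3.3 (lmFit and eBayes, a mean for each group, 8 residual degrees of freedom), checked on simulated data first. The 10 regulators, the lists and the tests were chosen with earlier results of these data known. All members are named, and where a gene has many probe sets the others are given by range and sign. Of each list the called genes are named, otherwise the gene with the lowest p between the tumours, and for RRAGD and NIBAN1 the 5 most alike genes. Groups of 3 limit the precision, since an exact permutation test of 3 against 3 cannot go below 0.1. Nothing in the labels says what separates the biological replicates, so the p-values reflect only how far these samples vary, which may be technical. Whether equal replicate numbers pair samples was read from the correlation of deviations from the group means. It was over 0.1 in all 3 pairs between spheroid and parental xenografts (0.182 to 0.482) and between spheroid xenografts and spheroid culture (0.333 to 0.431), so values with the replicate number as a block stand beside those results where they change a call. Between the tumours the pairing is not settled. Parental xenograft replicate 2 correlated more with spheroid xenograft replicate 1 (0.255) than with its own number (0.213). Of the pairs between parental xenografts and spheroid culture 2 of 3 were over 0.1 (0.0803 to 0.374), and with parental culture 1 of 3 in each (-0.565 to 0.333). The cut of 0.1 does not settle whether those groups are paired. Alternatives covered scaling, probe set choice, dim genes, model and left-out arrays, and the fit without parental culture replicates 1 and 2 together was added after seeing the data. Promoter sequences are from RefSeq, GRCh38.p14.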

Additional observations from a re-analysis of the deposited data

Results flagged for a closer look

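Among the listed pathway and marker genes, the effect of cell origin differed between tumours and culture in 2 by limma's interaction test. Of all 19775 genes, 27 were called there, or 0.137%. For CHAC1 the spheroid minus parental difference was 2.33 larger in xenografts than in culture (SE 0.35, limma adjusted p = 0.0340). It was 0.79 in xenografts and -1.53 in culture, and the interaction passed in 13 of 23 alternatives, with adjusted p from 0.000398 to 0.148. For FAP the interaction was -1.94 (SE 0.32, limma adjusted p = 0.0416), from -1.35 in xenografts and 0.58 in culture, and it passed in 10 of 22 alternatives, with adjusted p from 0.00445 to 0.148.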

How the results depend on the processing

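Of 1450 recomputed differences of the 10 regulators over 25 alternatives, 1426 stayed on their side of the threshold or, where not tested, moved by less than the spread between replicates, and no called difference of the 10 reversed. Fits that leave out an array outside the compared groups, keep only those groups or add a replicate block do not change the difference itself. This count is therefore not a measure of how firm the results are. The sign of uncalled differences turned in 64, all of differences no larger than 0.45. COL3A1 reversed without _x_at and _s_at probe sets, at -0.0087 in parental xenografts minus spheroid culture and -0.0153 in parental xenografts minus parental culture, where another probe set stands for the gene. All following counts are of genes called by limma, with the value from all arrays as deposited first.

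For spheroid minus parental xenografts the count was 46. It was 20 with median centring, 28 with cyclic loess, 23 without _x_at and _s_at probe sets, 161 with only the groups compared, 491 when that fit had a replicate block, 1206 with array weights, 70 with trend and robust, 107 without parental culture arrays 1 and 2, and 4 to 140 leaving out 1 array. For spheroid xenografts minus spheroid culture it was 4. It was 40 after quantile normalisation, 97 with that done within culture and within xenografts, 19 with cyclic loess, 7 with the mean of probe sets, 117 with only the groups compared, 591 with a replicate block added, 915 with array weights, 12 with trend and robust, 8 with the replicate block on all arrays, 49 without parental culture arrays 1 and 2, and 1 to 57 leaving out 1. For parental xenografts minus spheroid culture it was 165, against 328 after quantile normalisation, 441 within sets, 288 with loess, 106 without _x_at and _s_at probe sets, 319 with only the groups and a replicate block, 1629 with array weights, 491 without parental culture arrays 1 and 2, and 10 to 506 leaving out 1.

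For spheroid minus parental culture it was 487, against 1096 after quantile normalisation, 1067 within sets, 971 with loess, 15 with only the groups compared, 22 with a replicate block added, 2095 with array weights, 245 without parental culture arrays 1 and 2, and 77 to 853 leaving out 1. For parental xenografts minus parental culture it was 687, against 1178, 1280 and 1091 under those 3 scalings, 441 without _x_at and _s_at probe sets, 69 with only the groups, 68 with a replicate block added, 2343 with array weights, and 247 to 1591 leaving out 1. For the interaction it was 27, against 133, 131 and 94 under the same scalings, 8 with median centring, 896 with array weights, 12 with the replicate block, 62 without parental culture arrays 1 and 2, and 2 to 186 leaving out 1. Array weights ran from 0.192 for parental culture replicate 2 to 3.52 for spheroid xenograft replicate 2.

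Of the 10 regulators, 0 were called between the tumours, and 1, NIBAN1, with only the groups compared, with a replicate block added, with array weights and without parental culture arrays 1 and 2 (0 to 1 leaving out 1 array). In spheroid xenografts minus spheroid culture it was 0, and 1 with array weights (0 to 0 leaving out 1). In parental xenografts minus spheroid culture it was 0, and 1 with quantile normalisation within sets, with only the groups compared and without parental culture arrays 1 and 2, and 2 with array weights (0 to 1). In spheroid minus parental culture it was 2, and 0 without _x_at and _s_at probe sets, which removes those of RRAGD, NIBAN1 and RRAGA, 0 with only the groups compared, 0 with a replicate block added, and 1 without parental culture arrays 1 and 2 (0 to 3). In parental xenografts minus parental culture it was 1, and 0 without _x_at and _s_at probe sets, 0 without parental culture arrays 1 and 2, and 2 with array weights (1 to 2). The cause of these changes was not tested. PRR5 passed with array weights (0.0225) and BCL6 with the replicate block on the tumours alone (0.0243). A changed background correction was not run, since the deposited values are already log2. The replicate block on all arrays changed no count of called regulators, and 2 of 12 samples correlated best with their own number.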
